A study of Homo sapiens with 6 samples.

Results

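The genes described here encode the semaphorins, ephrins, slits and netrins, which are guidance cues, and the plexins, neuropilins, ROBO proteins, DCC and UNC5 proteins, which receive them. The members are all genes whose symbols fit a fixed pattern. The symbols were SEMA3A to SEMA7A and their sisters, PLXNA1 to PLXND1, EFNA1 to EFNB3, ROBO1 to ROBO4, SLIT1 to SLIT3, NRP1, NRP2, NTN1, NTN4, DCC, UNC5A, UNC5B and UNC5C. This gave 52 genes out of 27968 in the deposited tables: 20 semaphorins, 9 plexins, 2 neuropilins, 8 ephrins, 3 slits, 4 ROBO genes, 2 netrins and 4 netrin receptors. RNA was sequenced from 3 independent cultures of A549 and 3 of H23, both established human cell lines kept as models of lung adenocarcinoma. No culture was treated. A549 grew in DMEM and H23 in RPMI, each with serum, so an effect of the medium and an effect of the line cannot be told apart. RNA was taken from cultures that were nearly confluent, and libraries were made from total RNA after ribosomal RNA removal with a kit that keeps strand.

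Guidance cues were named for steering growing axons, and they also act in epithelia, vessels and tumours, where they change cell adhesion, movement and shape. Class 3 semaphorins are secreted and bind neuropilins, which hold the ligand while a plexin passes the signal into the cell. Class 4 to class 7 semaphorins are mostly bound to the membrane and can bind plexins directly. Ephrins are membrane ligands of the Eph receptor tyrosine kinases, with A ephrins tied to the membrane by a lipid anchor and B ephrins spanning it. Slits bind ROBO receptors, and netrins bind DCC and the UNC5 family.

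The libraries held 24441832, 25348083 and 23399562 estimated counts in A549 replicates 1, 2 and 3, and 37295989, 29395795 and 42421642 in the H23 replicates in the same order. Levels are given as CPM, read counts scaled to library size with TMM factors. With 3 counts taken as the least that a library can show, that floor lay at 0.118 to 0.128 CPM for A549 and at 0.0707 to 0.102 CPM for H23. H23 replicate 1 stood apart: its counts differed from those of the other H23 libraries with chi-square values of 103 and 130 per degree of freedom, against 5.44 between H23 replicates 2 and 3 and 3.81 to 3.99 within A549. Genes under 200 bases took 15.7 to 19.7% of the summed TPM, the deposited transcript abundance, in A549 and 0.112 to 0.242% in H23. Because TPM is scaled for length as well as depth, it was used for the order of genes within a line. Differences between the lines were tested on counts and are given as CPM, and TPM values of both lines, where printed together, describe each line and are not a comparison. Epithelial markers summed to 8180 to 8392 CPM in A549 and 3686 to 3826 CPM in H23, and of 12 tested 7 were higher in A549 and 4 in H23. The keratins KRT8 and KRT18 were high in both lines, at 2186 and 2250.1 CPM in A549 and 1493 and 2144 CPM in H23, while KRT7 was at 3562 and 1.18 CPM and ESRP2, a splicing factor of epithelia, at 0.151 and 17.9 CPM. Of 5 tested lung lineage markers, 2 were higher in each line, and the list summed to 45.5 to 47.0 CPM in A549 and 40.1 to 42.7 CPM in H23. Of all genes tested, 37.6% were higher in A549 and 39.6% in H23. FOXA2 was at 31.2 and 0.477 CPM, FOXA1 at 13.4 and 3.48 CPM and FOXJ1 at 0.443 and 33.3 CPM. NKX2-1, a lung lineage factor, had no counts in A549 and 2.95 CPM in H23, and the surfactant genes SFTPA1, SFTPB, SFTPC and SFTPD were at or below 0.178 CPM in both.

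Of the 52 guidance genes, 45 had enough counts to be tested. With an adjusted p threshold of 0.05, 12 were higher in A549, 28 were higher in H23 and 5 did not pass (edgeR's quasi-likelihood test, Benjamini-Hochberg adjustment over all 15426 genes tested). Calls were common in this comparison: 77.2% of all genes tested passed, 37.6% as higher in A549 and 39.6% as higher in H23. Among the 45 tested, the 40 genes that passed were also the 40 whose A549 and H23 libraries did not overlap, a separation that 82.1% of all genes tested showed. A called difference of at least 2-fold was found for 30 guidance genes, 10 higher in A549 and 20 higher in H23. The same criterion took 50.1% of all genes tested, 24.5% higher in A549 and 25.6% higher in H23. The median log2 fold, A549 over H23, was -0.72 over the 45 tested guidance genes and -0.03 over all genes tested. Ligands and receptors were both represented on each side. Among 28 tested ligands, 7 were higher in A549 and 19 in H23. Among 17 tested receptors and coreceptors, 5 were higher in A549 and 9 in H23.

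**Figure D1:**
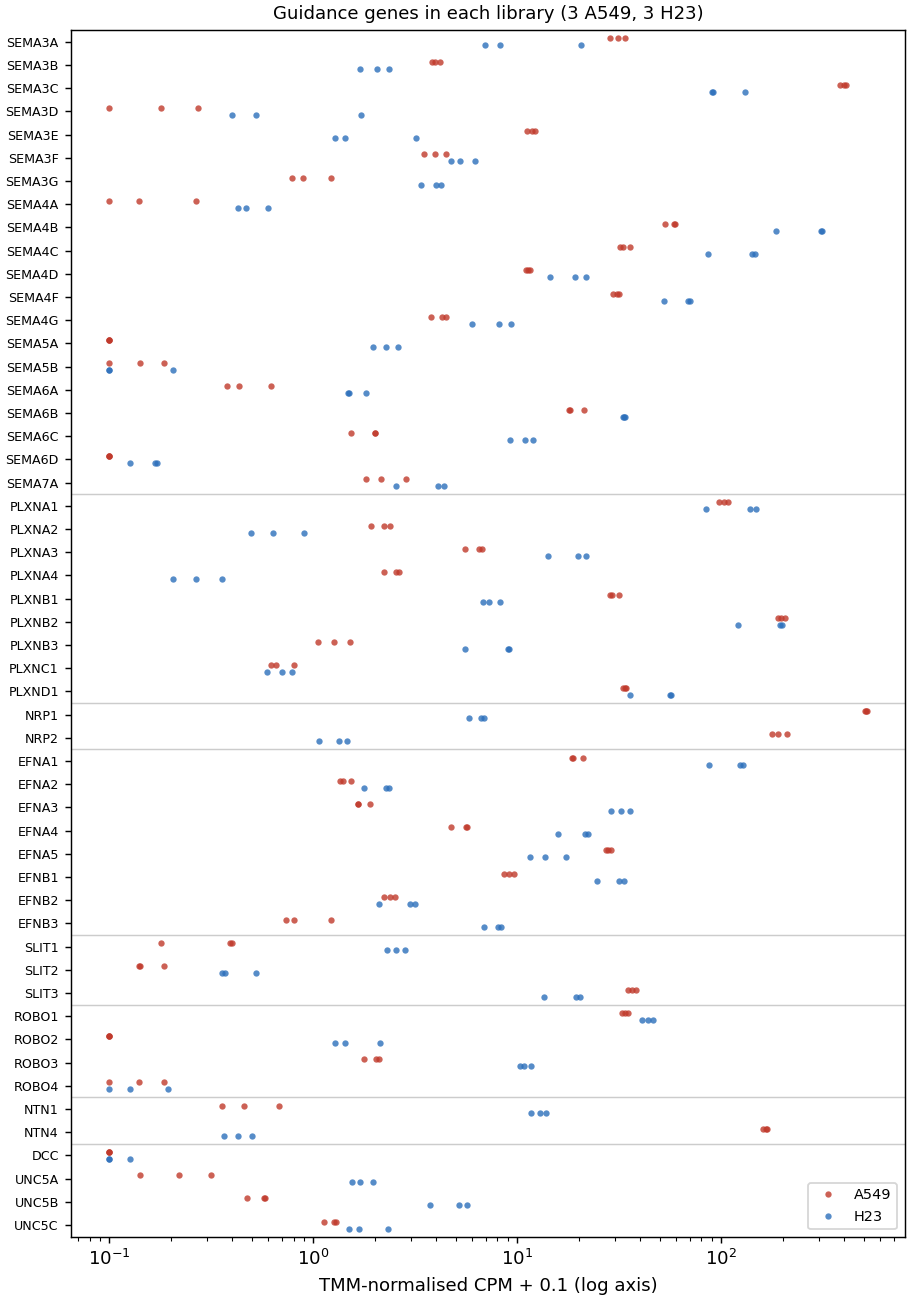
TMM-normalised CPM plus 0.1 (log axis) of the 52 guidance genes, grouped by family. Each point is 1 library, red for the 3 A549 and blue for the 3 H23 libraries. NRP1, NRP2 and NTN4 lie far to the right in A549, and EFNA3, NTN1, ROBO2 and SEMA5A lie to the right in H23.

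GC content and H23 replicate 1 moved with these counts. Among the 45 tested genes, H23 replicate 1 was the lowest H23 library for 30 and the highest for 8. The 22 guidance genes with a GC content above the set's median of 59.0% held 17 that were higher in H23 and 2 that were higher in A549, and H23 replicate 1 was the lowest H23 library for 18 of them. The other 23 held 11 higher in H23 and 10 higher in A549, with H23 replicate 1 lowest for 12. Over all tested genes with a GC content above the same value, 49.4% were higher in H23 and 29.4% in A549, against 37.0% and 39.9% of those at or below it. Without H23 replicate 1 the set gave 12 genes higher in A549 and 30 in H23, while all genes gave 6839 and 6935 of 15545 tested. When a trend on GC content and length was removed, the set gave 13 and 27, and all genes gave 5807 and 6628 of 15426. As reported, all genes gave 5801 and 6109 of 15426. The part of GC content in the single results was otherwise not tested. Upper quartile scaling moved the median log2 fold of all genes tested to -0.16, and log2(TPM + 1) values moved it to -0.41. Of the 40 called genes, none turned direction under any of 17 alternatives.

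**Figure D2:**
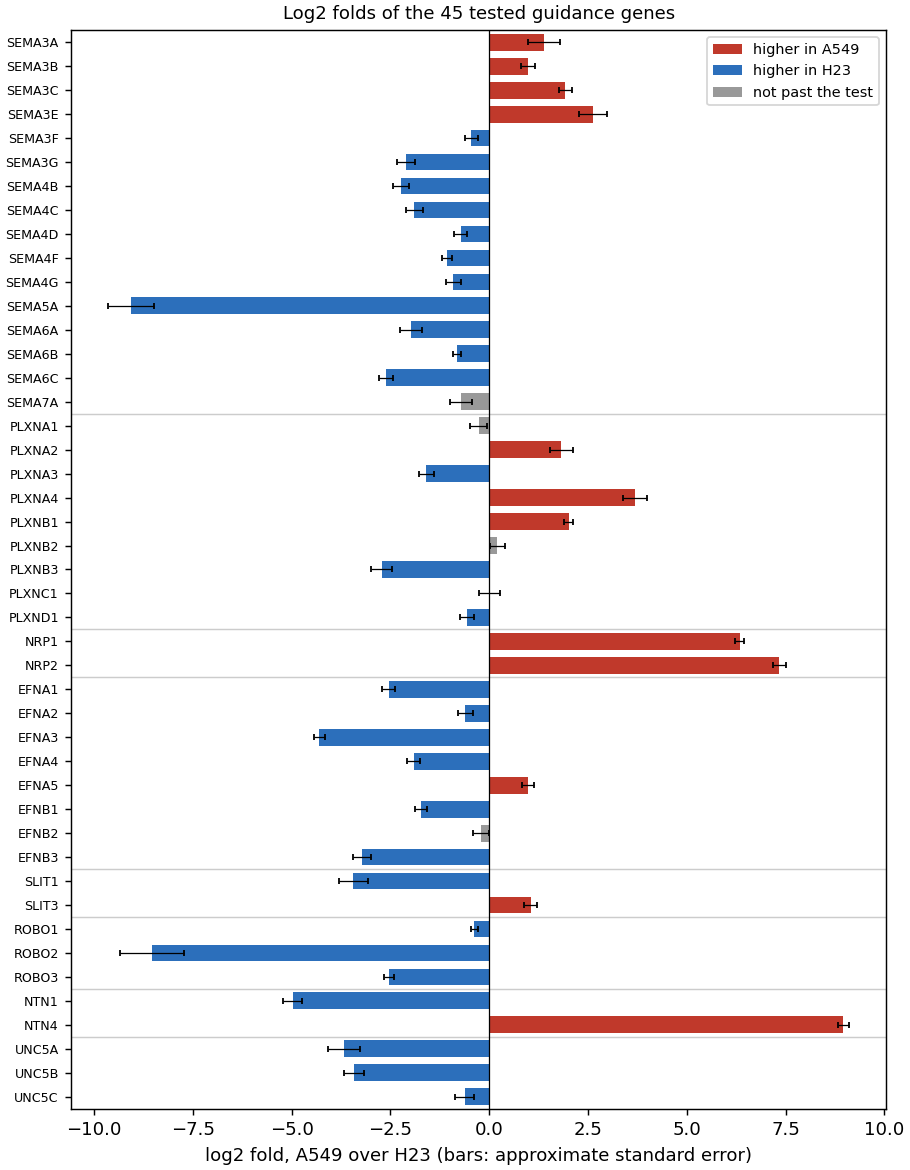
Log2 fold, A549 over H23, of the 45 tested guidance genes, with approximate standard errors (horizontal lines), grouped by family. Red bars passed as higher in A549, blue bars as higher in H23, and grey bars did not pass. The bars of ROBO2 and SEMA5A are fitted values for genes with no counts in A549, and their length depends on the fit's prior count. Neuropilins point to A549, and tested class 4, 5 and 6 semaphorins, ROBO genes, UNC5A, UNC5B and UNC5C point to H23.

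The neuropilins, the class 3 semaphorin coreceptors, were both far higher in A549. NRP1 measured 517, 510 and 508 CPM in A549 and 5.71, 6.52 and 6.76 CPM in H23. Every A549 library was far above every H23 library, with a log2 fold of 6.34 ± 0.11 (SE, n = 3 per line, edgeR adjusted p = 1.06e-07). NRP2 measured 178, 190 and 209 CPM in A549 and 1.24, 1.37 and 0.965 CPM in H23, which gave a log2 fold of 7.34 ± 0.17 (SE, edgeR adjusted p = 2.25e-07). NRP1 headed the whole set in A549 on the length-scaled measure, at 109 TPM, and NRP2 stood at 39.7 TPM. In H23 the means were 2.15 TPM for NRP1 and 0.44 TPM for NRP2. Neuropilins also bind vascular endothelial growth factor beside its receptors KDR and FLT1. Those receptor genes, named here after their values were seen, had too few counts to be tested: KDR had no counts in A549 and 0.0255 CPM in H23, and FLT1 had 0.0277 and 0.139 CPM.

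Class 3 semaphorins, the secreted ligands of the neuropilins, split between the lines. Of 6 tested genes 4 were higher in A549, against 37.6% of all genes tested. SEMA3C measured 381, 410 and 399 CPM in A549 and 131, 89.7 and 91.3 CPM in H23. Every A549 library was above every H23 library, and the log2 fold was 1.93 ± 0.16 (SE, edgeR adjusted p = 4.02e-05). It was also among the leading guidance genes of both lines, at 85.4 TPM in A549 and 33.4 TPM in H23. SEMA3A, the founding collapsin that repels growth cones, measured 33.7, 28.4 and 31.1 CPM in A549 and 20.3, 6.88 and 8.17 CPM in H23. The lines did not overlap, but H23 replicate 1 lay well above the other H23 libraries. The log2 fold of SEMA3A was 1.39 ± 0.40 (SE, edgeR adjusted p = 0.0153), rose to 2.03 without H23 replicate 1, and fell to 0.70 with the GC and length trend removed. SEMA3E, a ligand of plexin D1 that needs no neuropilin, had a log2 fold of 2.63 ± 0.35 (SE), which became 1.81 with that trend removed. SEMA3E likewise had its highest H23 value in replicate 1, at 3.09 CPM against 1.34 and 1.18. SEMA3B averaged 3.87 CPM in A549 libraries and 1.94 CPM in those of H23 (log2 fold 0.99 ± 0.17, SE). SEMA3B lost its call on log2(TPM + 1) values. SEMA3F and SEMA3G went the other way. SEMA3G was at 0.866 and 3.76 CPM, with a log2 fold of -2.11 ± 0.23 (SE). SEMA3F was at 3.87 and 5.31 CPM, with a log2 fold of -0.45 ± 0.17 (SE), and its edgeR adjusted p of 0.0389 became 0.656 with the GC and length trend removed. Within each line SEMA3C made up most of the summed class, which came to 96.3 TPM in A549 and 42.4 TPM in H23.

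Class 4 semaphorins, membrane ligands of the B and D plexins, were higher in H23 for all 5 genes tested, against 39.6% of all genes tested. SEMA4B, SEMA4C and SEMA4F lay above the set's median GC content, where 49.4% of all genes tested were higher in H23. SEMA4B was the most abundant, at 59.3, 58.7 and 52.8 CPM in A549 and 187, 311 and 308 CPM in H23. The lowest H23 library was still above every A549 library, and the log2 fold was -2.24 ± 0.21 (SE, edgeR adjusted p = 6.51e-05). SEMA4C, a ligand of plexin B2, measured 32.9, 31.8 and 35.7 CPM in A549 and 85.8, 141 and 146 CPM in H23. Again H23 replicate 1 was the lowest H23 library and the lines did not overlap (log2 fold -1.89 ± 0.21, SE, edgeR adjusted p = 0.000157). SEMA4D, the ligand of plexin B1, and its relatives SEMA4F and SEMA4G gave smaller log2 folds of -0.72, -1.06 and -0.91. On the length-scaled measure SEMA4B averaged 124 ± 37.1 TPM and SEMA4C 57.9 ± 18 TPM in H23 (SD, n = 3). In A549, SEMA4B was at 17.3 TPM and SEMA4C at 10.6 TPM. The remaining class 4 gene, SEMA4A, was not tested, with 0.0687 CPM in A549 and a mean of 0.4 CPM in H23.

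Of the 5 tested class 5 to 7 semaphorins, 4 were higher in H23, against 39.6% of all genes tested, and SEMA7A did not pass. SEMA5A, which carries thrombospondin repeats, had no counts in any A549 library and measured 2.51, 1.87 and 2.17 CPM in H23. Set against the floor of 3 counts in each A549 library, it was at least 17.7-fold higher in H23. All 3 tested class 6 genes, transmembrane ligands of A plexins, were higher in H23. SEMA6C measured 1.91, 1.44 and 1.9 CPM in A549 and 9.09, 11.9 and 10.9 CPM in H23, which put every H23 library well above every A549 library (log2 fold -2.60 ± 0.18, SE, edgeR adjusted p = 1.53e-05). SEMA6A and SEMA6B followed with log2 folds of -1.97 and -0.80, and SEMA6B was the most abundant of the class at 5.38 TPM in A549 and 13.8 TPM in H23. SEMA7A, a lipid-anchored semaphorin that binds plexin C1 and integrins, measured 1.7, 2.04 and 2.76 CPM in A549 and 2.43, 4.01 and 4.26 CPM in H23. The lines overlapped and the gene did not pass (log2 fold -0.72 ± 0.28, SE, edgeR adjusted p = 0.051). It passed under 9 of the 17 alternatives. Without H23 replicate 1 its log2 fold was -0.94, with an edgeR adjusted p of 3.22e-05.

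Plexins, the signalling receptors of semaphorins, divided evenly: 3 of 9 passed toward A549, 3 passed toward H23 and 3 did not pass. Over all genes tested, 37.6% passed toward A549 and 39.6% toward H23. The abundant plexins were among those that did not pass. PLXNB2 measured 189, 197 and 205 CPM in A549 and 121, 198 and 194 CPM in H23, with overlap between the lines (log2 fold 0.20 ± 0.19, SE, edgeR adjusted p = 0.349). PLXNA1, a receptor that pairs with neuropilins, measured 97.3, 103 and 108 CPM in A549 and 83.7, 149 and 138 CPM in H23. H23 replicate 1 was below the A549 libraries and the other H23 libraries were above them, so the direction differed within H23. The log2 fold of PLXNA1 was -0.27 ± 0.21 (SE, edgeR adjusted p = 0.272), and it was -0.49 without H23 replicate 1, with an adjusted p of 1.19e-09. PLXNC1, the SEMA7A receptor, averaged 0.594 CPM in both lines.

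PLXNB1, the SEMA4D receptor, measured 28.5, 28.9 and 31.5 CPM in A549 and 7.13, 8.15 and 6.73 CPM in H23. Of the plexins that passed toward A549 it was the most abundant, and its log2 fold was 2.01 ± 0.11 (SE, edgeR adjusted p = 6e-06). PLXNA2 and PLXNA4 also passed toward A549 (log2 folds 1.83 and 3.68), but at 0.193 and 0.21 TPM they were scarce. On the H23 side, PLXNB3 measured 1.41, 0.959 and 1.16 CPM in A549 and 5.44, 8.92 and 8.97 CPM in H23. The lines did not overlap for PLXNB3, and the log2 fold was -2.72 ± 0.27 (SE, edgeR adjusted p = 8.93e-05). PLXNA3 followed at -1.60 ± 0.19 (SE), so of the 4 A plexins 2 passed toward A549, 1 toward H23 and 1 did not pass. PLXND1, the SEMA3E receptor, averaged 33.6 CPM in the A549 libraries and 49.4 CPM in those of H23, and its call at an adjusted p of 0.0266 was lost when any library other than H23 replicate 1 was left out, with adjusted p values of 0.0723 to 0.0881.

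Ephrins were higher in H23 for 6 of 8 genes, against 39.6% of all genes tested, and 3 of the 6 lie side by side. EFNA4, EFNA3 and EFNA1 encode lipid-anchored ligands of EphA receptors and follow each other on chromosome 1. No other protein-coding gene lies between them in the RefSeq order. Their promoter windows are shown because all 3 genes were higher in the same line, together with those of NRP2, which was higher in A549, and SEMA5A, which had no counts in A549. Each window runs from 250 bases before to 50 bases after the annotated start, 5′ to 3′ on the gene's strand, from RefSeq on GRCh38.p14. The build differs from hg19, on which the expression values were made. Capitals mark CpG dinucleotides, the sites at which vertebrate DNA is methylated. EFNA4 lies at chr1:155063490-155063789 (plus strand), EFNA3 at chr1:155078587-155078886 (plus), EFNA1 at chr1:155127626-155127925 (plus), NRP2 at chr2:205682251-205682550 (plus) and SEMA5A at chr5:9546026-9546325 (minus).
EFNA4: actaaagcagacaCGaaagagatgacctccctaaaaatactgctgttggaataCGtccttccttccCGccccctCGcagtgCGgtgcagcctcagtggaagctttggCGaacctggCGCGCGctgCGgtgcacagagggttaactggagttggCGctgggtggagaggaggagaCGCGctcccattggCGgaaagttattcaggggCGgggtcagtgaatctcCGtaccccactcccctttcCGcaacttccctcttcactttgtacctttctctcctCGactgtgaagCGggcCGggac
EFNA3: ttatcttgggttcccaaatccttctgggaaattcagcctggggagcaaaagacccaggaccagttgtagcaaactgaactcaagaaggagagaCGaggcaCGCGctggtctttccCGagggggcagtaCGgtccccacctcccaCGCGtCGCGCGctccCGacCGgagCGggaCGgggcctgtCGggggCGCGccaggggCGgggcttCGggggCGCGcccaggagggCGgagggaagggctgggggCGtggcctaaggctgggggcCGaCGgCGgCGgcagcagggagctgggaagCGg
EFNA1: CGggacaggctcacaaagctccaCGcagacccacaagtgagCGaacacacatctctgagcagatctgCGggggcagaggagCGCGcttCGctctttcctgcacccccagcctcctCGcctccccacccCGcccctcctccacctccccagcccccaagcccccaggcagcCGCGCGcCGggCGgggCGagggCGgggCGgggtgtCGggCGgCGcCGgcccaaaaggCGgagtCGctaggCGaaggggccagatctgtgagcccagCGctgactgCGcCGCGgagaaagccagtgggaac
NRP2: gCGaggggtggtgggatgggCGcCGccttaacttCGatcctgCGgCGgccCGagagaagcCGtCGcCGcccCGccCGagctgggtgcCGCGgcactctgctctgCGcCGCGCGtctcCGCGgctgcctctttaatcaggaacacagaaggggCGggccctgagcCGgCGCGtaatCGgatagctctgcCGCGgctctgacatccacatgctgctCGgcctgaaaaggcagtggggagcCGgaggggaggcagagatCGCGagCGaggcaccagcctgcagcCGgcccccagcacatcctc
SEMA5A: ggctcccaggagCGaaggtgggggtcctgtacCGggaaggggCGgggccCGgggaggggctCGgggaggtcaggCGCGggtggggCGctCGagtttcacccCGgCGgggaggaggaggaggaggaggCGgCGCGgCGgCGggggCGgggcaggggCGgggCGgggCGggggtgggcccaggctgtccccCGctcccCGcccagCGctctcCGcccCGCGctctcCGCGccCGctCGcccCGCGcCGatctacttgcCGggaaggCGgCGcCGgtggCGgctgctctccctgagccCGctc

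In that order the windows hold 20, 28, 28, 33 and 39 CpG dinucleotides, against a median of 14 over 35116 promoter windows of the same length. The 71 windows matched to 45 of the 52 guidance genes had a median of 21. Windows of genes higher in A549 had a median of 21.5 and those of genes higher in H23 a median of 26. The GC box GGGCGG, searched on both strands, occurs 2, 2, 5, 3 and 7 times in the printed windows. It was present in 48 of the 71 windows of the set and in 45% of all promoter windows. The TATA box TATAAA was in 2 of the 71 windows and 11.5% of all, the AP-1 motif TGANTCA in 1 and 7.71%, the E-box CACGTG in 3 and 7.26%, and the TEAD motif GGAATG in 9 and 14%. These matches describe the letters of the windows, and neither methylation nor factor binding was measured.

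EFNA3 measured 1.79, 1.56 and 1.55 CPM in A549 and 28.8, 32.3 and 35.7 CPM in H23. Each H23 library was far above each A549 library, with a log2 fold of -4.30 ± 0.14 (SE, edgeR adjusted p = 7.28e-07). EFNA1 measured 18.5, 18.7 and 21 CPM in A549 and 86.7, 128 and 123 CPM in H23. Its log2 fold was -2.54 ± 0.17 (SE, edgeR adjusted p = 1.37e-05), or -1.86 with the GC and length trend removed. EFNA1 was the most abundant guidance gene of H23 at 127 ± 31.1 TPM (SD, n = 3), level with SEMA4B within their spread. EFNA4 measured 4.65, 5.51 and 5.56 CPM in A549 and 15.7, 21.5 and 22.1 CPM in H23, which gave a log2 fold of -1.91 ± 0.17 (SE, edgeR adjusted p = 5.1e-05) that became -1.10 with the same trend removed.

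EFNB3, a transmembrane ephrin, measured 0.707, 0.639 and 1.12 CPM in A549 and 6.76, 8.22 and 7.93 CPM in H23. The libraries of the lines lay well apart, with a log2 fold of -3.21 ± 0.23 (SE, edgeR adjusted p = 1.87e-05). EFNB1, the X-linked ephrin, gave -1.72 ± 0.14 (SE), from 9.02 CPM in A549 to 29.8 CPM in H23. EFNA2 passed at an adjusted p of 0.0255 with 1.33 and 2.03 CPM, and its call was lost with the GC and length trend removed (adjusted p = 0.64). EFNB2, the arterial ephrin, did not pass at 2.27 and 2.64 CPM (log2 fold -0.21 ± 0.21, SE, edgeR adjusted p = 0.369). EFNA5 was the only ephrin that passed as higher in A549, at 27.2, 28.9 and 27.7 CPM against 17.1, 13.6 and 11.5 CPM in H23 (log2 fold 0.99 ± 0.15, SE, edgeR adjusted p = 0.000902).

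The Eph receptors, which bind ephrins, were not part of the symbol rule and were read from a list of 14. Of 11 tested, 3 were higher in A549, 5 were higher in H23 and 3 did not pass, a share of 72.7% called against 77.2% of all genes tested. EPHB2, a receptor of B ephrins, averaged 157 ± 8.02 CPM in A549 and 7.71 ± 0.8 CPM in H23 (SD, n = 3), a log2 fold of 4.34 ± 0.11 (SE). EPHB4, the main EFNB2 receptor, differed by a log2 fold of 0.50 ± 0.14 (SE). In H23 the kinase-inactive receptors EPHB6 and EPHA10 were higher, with log2 folds of -5.91 ± 0.29 and -1.60 ± 0.15 (SE). EPHA2, a receptor of EFNA1 named here after its values were seen, averaged 297 ± 22.6 CPM in A549 against 343 ± 38.8 CPM in H23 (SD) and did not pass (edgeR adjusted p = 0.119).

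Netrins changed in opposite directions. NTN4, a netrin of basement membranes, measured 166, 161 and 168 CPM in A549 and 0.264, 0.401 and 0.33 CPM in H23. Its log2 fold of 8.96 ± 0.15 (SE, edgeR adjusted p = 9.38e-08) was the largest of the set toward A549, and its mean in that line was 54.9 TPM. NTN1, the classical axon attractant, measured 0.582, 0.359 and 0.259 CPM in A549 and 11.5, 12.9 and 13.7 CPM in H23. NTN1 was thus scarce in every A549 library, with a log2 fold of -4.97 ± 0.24 (SE, edgeR adjusted p = 3.7e-06). The netrin receptors were sparse. UNC5B, a dependence receptor of netrin 1, had means of 0.443 CPM in A549 and of 4.77 CPM in H23 (log2 fold -3.42 ± 0.25, SE), and UNC5A of 0.126 and 1.64 CPM (log2 fold -3.67 ± 0.40, SE). UNC5C was at 1.13 and 1.73 CPM and passed narrowly, with an adjusted p of 0.0456 that became 0.0849 in DESeq2. DCC, the attractive netrin receptor, had no counts in A549 and 0.00881 CPM in H23, below the floor of 3 counts, so a difference was not detectable at this depth.

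Of the 3 tested ROBO genes, all were higher in H23, as were 39.6% of all genes tested. ROBO1, by far the most abundant, averaged 33.6 CPM in A549 libraries against 43.5 CPM in H23 libraries (log2 fold -0.37 ± 0.09, SE, edgeR adjusted p = 0.00594). ROBO3, known for its role at the midline of the nervous system, was at 1.87 and 10.8 CPM, a log2 fold of -2.53 ± 0.13 (SE). ROBO2, which lies beside ROBO1 on chromosome 3, had no counts in A549 and measured 2.03, 1.34 and 1.18 CPM in H23. That was at least 12.2-fold higher against 3 counts in each A549 library. ROBO4, the endothelial member, was at or below 0.0941 CPM in every library and was not tested. Among the slits, SLIT3 measured 34.8, 36.6 and 38.3 CPM in A549 and 13.5, 20.3 and 19.3 CPM in H23, without overlap, and had a log2 fold of 1.05 ± 0.16 (SE, edgeR adjusted p = 0.000875). SLIT3 did not pass on log2(TPM + 1) values (adjusted p = 0.0527). SLIT1 was at 0.224 and 2.45 CPM, a log2 fold of -3.44 ± 0.37 (SE). SLIT2 was not tested, at 0.0559 and 0.316 CPM.

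Ranked by TPM within a line, the leading guidance genes differed. In A549 the order was NRP1 at 109, SEMA3C at 85.4, NTN4 at 54.9, NRP2 at 39.7, PLXNB2 at 34 and SEMA4B at 17.3 TPM. In H23 it was EFNA1 at 127, SEMA4B at 124, SEMA4C at 57.9, PLXNB2 at 43.7, SEMA3C at 33.4 and EFNA3 at 31.4 TPM. A level of at least 1 TPM in all libraries of a line was reached by 24 of the 52 genes in A549 and 31 in H23. A level of at least 10 TPM was reached by 8 and 11. Genes under 200 bases took a larger part of the TPM in A549, and the share of all genes at these levels was not counted. These numbers describe each line and are not a comparison. Besides the genes without counts named above, SEMA6D had none in A549 and 0.0546 CPM in H23. SEMA5B averaged 0.0426 and 0.0352 CPM, means below the floor in both lines. Its H23 counts were 4 in replicate 1, above the floor of 3, and 0 in the other replicates. SEMA3D was at 0.0841 and 0.779 CPM and not tested.

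Transcript shares were read from the deposited isoform percentages, and their change was tested on transcript counts (edgeR's diffSpliceDGE F test, adjusted over 7539 genes). Of 15 guidance genes with enough transcripts to test, 8 passed, against 25.8% of all genes tested. In 7 of the 8, a transcript changed its share by at least 20 percentage points. Changes of that size also occurred in SEMA7A, SEMA3B and SEMA4B (49.9, 44.4 and 27.9 points), which were tested and did not pass. The share of all genes with such a change was not counted. Transcripts of a gene share most of their sequence, and RSEM divided the reads between them by its model. NRP2 gave the smallest adjusted p, 2.53e-11. Transcript NM_003872 made up 46.35, 50.4 and 47.01% of NRP2 in A549 and was listed at 0 in all H23 libraries. NM_201279 was listed at 0 in A549 and made up 41.77, 38.84 and 25.96% in H23. The shorter NM_201264 took 14.7 ± 1.89% in A549 and 41.6 ± 17.1% in H23 (SD, n = 3). The H23 shares of NRP2 rest on 129 reads in all.

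**Figure D3:**
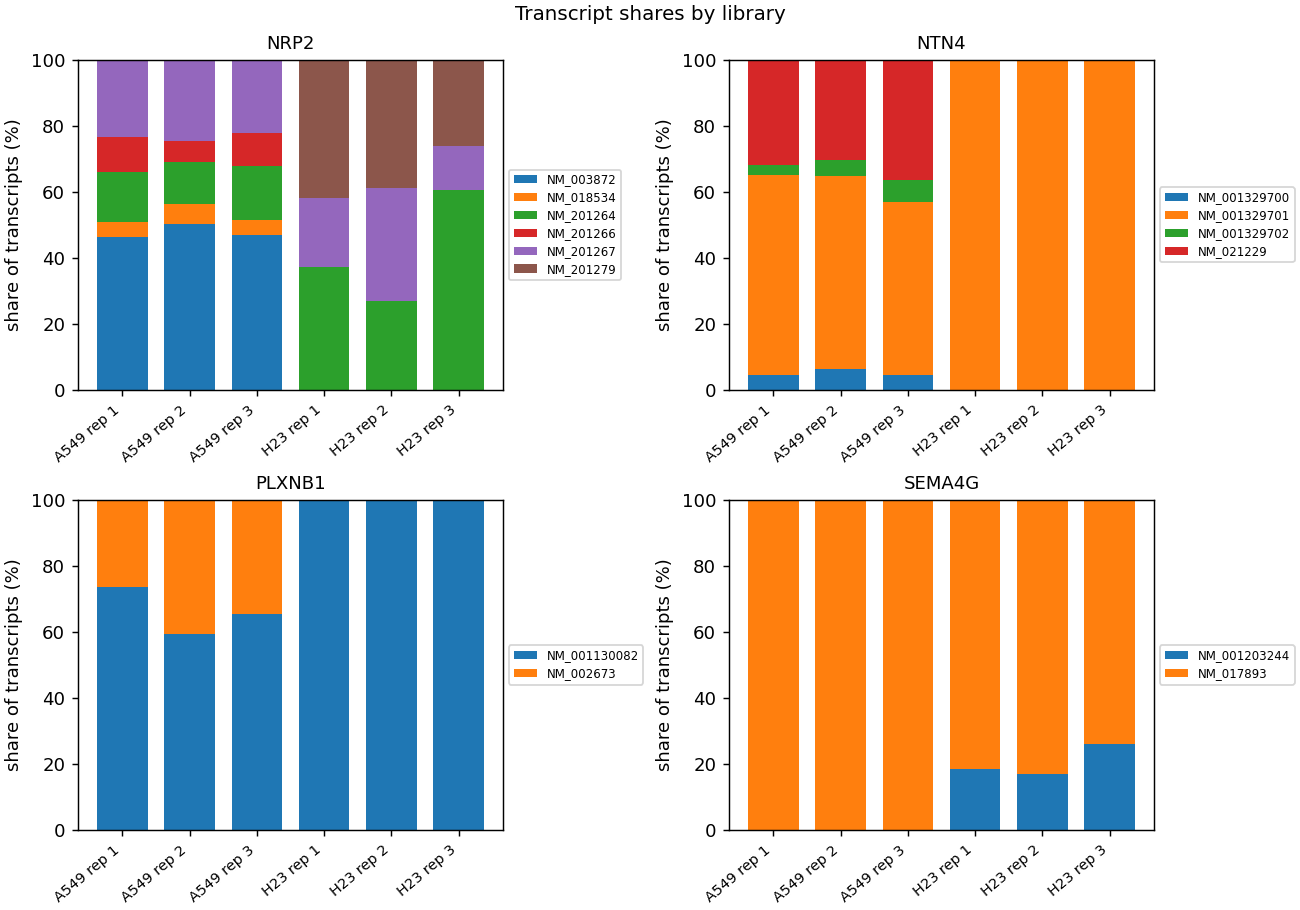
Share of each RefSeq transcript (stacked bars, percent of the gene's transcripts) in each of the 6 libraries for NRP2, NTN4, PLXNB1 and SEMA4G. NM_003872 of NRP2, NM_021229 of NTN4 and NM_002673 of PLXNB1 appear in the A549 libraries and are listed at 0 in the H23 libraries, while NM_001203244 of SEMA4G appears in H23.

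NTN4 was read as NM_001329701 alone in H23, from 36 reads over the libraries. In A549 that transcript made up 57.1 ± 4.13% and NM_021229 32.8 ± 3.21% (SD, n = 3; edgeR adjusted p = 1.07e-05). PLXNB1 rested on more reads in H23, 800 in all. NM_001130082 made up 73.75, 59.38 and 65.53% of PLXNB1 in A549 and 100% in each H23 library, while NM_002673 took the rest (edgeR adjusted p = 6.28e-06). SEMA4G showed the reverse pattern: NM_017893 was the sole transcript in A549 and made up 81.42, 82.98 and 73.79% in H23 (edgeR adjusted p = 0.00031).

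SEMA3C was the most abundant ligand of the set in A549 by TPM. It was led by NM_006379 in both lines on average, at 78.9 ± 1.67% in A549 and 53.2 ± 14% in H23 (SD, n = 3). NM_001350120 took 16.2 ± 0.902% and 41.5 ± 14.9% (edgeR adjusted p = 0.00426). In H23 replicate 1 NM_006379 made up 37.16% of SEMA3C, against 59.64 and 62.95% in the other H23 libraries. SEMA3F carried NM_001318798 at 54.89, 29.64 and 44.09% in H23 and listed it at 0 in A549 (edgeR adjusted p = 0.0109). ROBO1 was 56.37, 52.37 and 58.94% NM_133631 in A549 and 9.52, 26.11 and 41.29% in H23, with H23 replicate 1 lowest (edgeR adjusted p = 0.0243). In SEMA4F the leading transcript was NM_001271662 in A549, at 42.3 ± 8.29%, and NM_004263 in H23, at 51 ± 2.12% (SD, n = 3; edgeR adjusted p = 0.025). NRP1, whose transcript NM_001024628 was at 17.9 ± 2.19% in A549 and 28.1 ± 2.97% in H23 (SD, n = 3), did not pass (edgeR adjusted p = 0.0996). Leaving out single libraries left 6 to 9 guidance genes with changed usage, and 17.9 to 29.6% of all genes tested. NRP2, NTN4, PLXNB1, SEMA3C and SEMA4G passed each time, and ROBO1, SEMA3F and SEMA4F did not pass when any A549 library was left out.

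Other ligands and receptors of guidance, 17 of them tested, went 9 toward A549 and 5 toward H23, a called share of 82.4% against 77.2% of all genes tested. NRCAM, an adhesion molecule, averaged 209 ± 7.47 CPM in A549 against 0.0399 ± 0.0352 CPM in H23 (SD, n = 3), with a log2 fold of 12.33 ± 0.31 (SE). Its relative L1CAM went the other way, at 2.39 ± 0.682 and 197 ± 50.3 CPM (SD), a log2 fold of -6.37 ± 0.31 (SE). FLRT3, a ligand of UNC5 receptors, and MST1R, a kinase that B plexins can bind, were higher in A549 by log2 folds of 5.43 and 3.53. PTK7 and RGMB, a ligand of neogenin, were higher in H23 by log2 folds of -3.01 and -0.82. UNC5D, the remaining UNC5 gene and named here after its values were seen, went against UNC5A, UNC5B and UNC5C. It measured 2.99, 3.24 and 3.58 CPM in A549 and had no counts in H23, at least 40-fold higher in A549 against 3 counts in each H23 library (edgeR adjusted p = 2.89e-05).

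Among 44 tested genes of intracellular guidance signalling, 21 were higher in A549 and 16 in H23, a called share of 84.1% against the same 77.2%. ROCK2, a kinase below RhoA that drives contraction, had a log2 fold of 3.46 ± 0.53 (SE), RND1, a GTPase that binds plexins, 3.09 ± 0.14, and DPYSL2, also called CRMP2, 2.48 ± 0.08. Toward H23 stood TIAM1, an activator of Rac, at -4.32 ± 0.28, and CRMP1 at -3.94 ± 0.25 (SE). The CRMP proteins carry semaphorin 3A signals to the cytoskeleton, and here CRMP1 and DPYSL2 differed in opposite directions. Of 13 tested genes for cleavage and shedding, 7 were higher in A549 and 3 in H23, a called share of 76.9% against 77.2% of all genes tested. The secreted protease BMP1 led toward A549 at 3.10, followed by ADAM10, which sheds ephrins, at 2.70 and FURIN, which cleaves class 3 semaphorins, at 1.37 (log2 folds). NCSTN, a gamma-secretase subunit, at -3.33 and MMP14 at -1.60 stood toward H23.

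Markers of other cell types were checked because several guidance genes are typical of vessels or neurons. Endothelial markers summed to 0.431 to 0.54 CPM in A549 and 8.22 to 8.45 CPM in H23, with 5 of 8 at 0 in A549 and 1 of 8 at 0 in H23. ERG made up 7.17 CPM of the H23 sum, and PECAM1 was at 0 and 0.00785 CPM. Blood cell markers summed to 13.8 to 14.9 CPM in A549 and 17.9 to 24.5 CPM in H23, and of 4 tested 1 was higher in H23 and 3 did not pass. PTPRC was at 0.0139 and 0 CPM and CD3E had no counts, so other genes of the list carried the sum. Neuronal markers summed to 296 to 308 CPM in A549 and 382 to 454 CPM in H23, mostly TUBB3, and 5 of 7 tested were higher in H23. Mesenchymal markers summed to 1519 to 1523 CPM in A549 and 2255 to 2806 CPM in H23, mostly VIM, while 5 of 12 tested were higher in A549 and 4 in H23, with a median log2 fold of 0.28. Over all genes tested, 37.6% were higher in A549 and 39.6% in H23. The part of these lists in the guidance results was not tested. Reads from an overlapping antisense gene cannot be told apart from a member's own if counting ignored strand, and the strand setting is not given in the sources used here. Of the overlapping antisense or readthrough genes in the tables, SEMA3F-AS1 was at 1.31 and 1.70 CPM, while SEMA3B-AS1, SEMA5A-AS1, SEMA6A-AS1, SLIT1-AS1, UNC5B-AS1 and ARHGAP19-SLIT1 were at or below 0.188 CPM in every library.

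**Figure D4:**
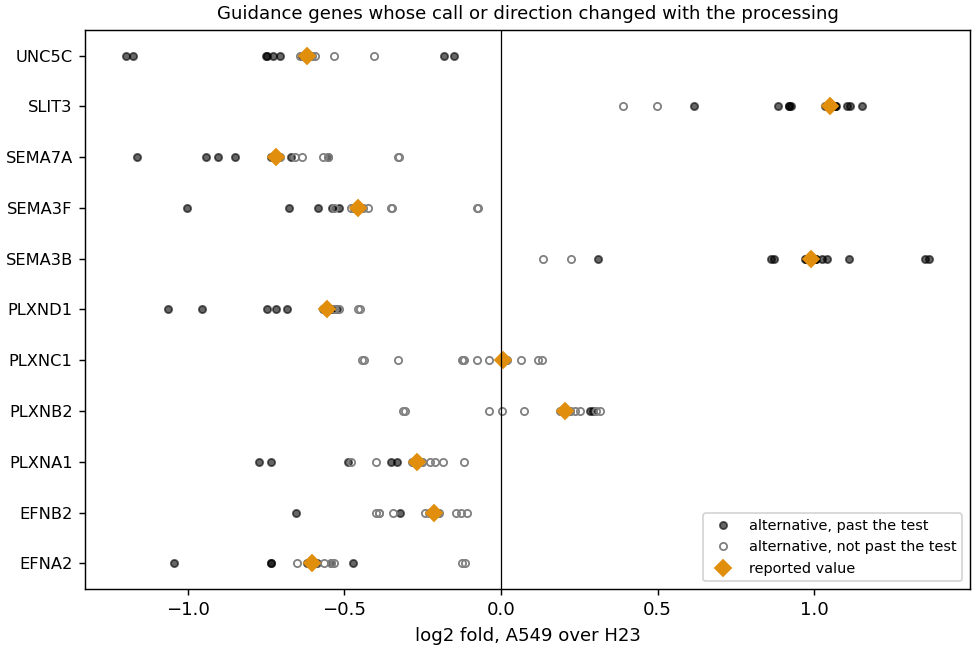
Log2 fold, A549 over H23, of the guidance genes whose call or direction changed under at least 1 processing alternative. Diamonds are the reported values, filled points are alternatives past an adjusted p of 0.05 and open points are alternatives that did not pass. PLXNB2 and PLXNC1 have points on both sides of 0, and neither passed as reported.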

How the data were processed

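Gene and transcript tables of 6 libraries were used. Per the submitters' processing notes, STAR 2.6.0c, RSEM 1.3.0 and hg19 were used, and the annotation release and strand setting are not given in the sources used here. Per the file headers, the authors' tables hold RSEM expected counts (reads estimated per gene or transcript), TPM scaled for length and depth, and isoform percent, a transcript's part of its gene. The deposited FPKM values were not used.

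Expected counts were rounded and filtered with filterByExpr, leaving 15426 genes. TMM factors (0.985 to 1.02) scaled them, and edgeR 4.0.16 in R 4.3.3 tested A549 against H23 (robust quasi-likelihood F test, Benjamini-Hochberg over all genes, threshold 0.05). Standard errors are approximate, from dividing the fold by the root of its F value. Transcript usage was tested with diffSpliceDGE. An exact permutation test of 3 against 3 libraries cannot give a two-sided p below 0.1. Folds against a line without counts use 3 counts in each of its libraries. Floors cover counting error only, and reads of close paralogs or transcripts carry RSEM's division error.

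The genes, lists and naming rule were chosen with earlier results of these data known. The rule gave library values to the 6 largest folds per direction among genes past the test, without overlap and with at least 2 TPM in the higher line, to the 6 highest TPM means, and to genes whose leading transcript changed by at least 20 points. Other genes with values in every library were added after their values were seen. From each further list it named up to 3 genes per direction with at least 2 TPM. A gene that this rule would name is not reported here. Alternatives were DESeq2 1.42.0, limma 3.58.1 on log2 TPM plus 1 or 0.1, other scalings and filters, a replicate block, a GC and length trend (GC known for 96.2% of genes tested), each library left out and, added after seeing the data, TPM rescaled over genes of at least 200 bases.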

Additional observations from a re-analysis of the deposited data

How the results depend on the processing

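Of the 40 called guidance genes, 34 kept their call and direction under all 17 alternatives. EFNA2, PLXND1, SEMA3B, SEMA3F, SLIT3 and UNC5C lost the call under at least 1. SEMA3F was called under 7 of the 17, EFNA2 under 9, UNC5C under 10, PLXND1 under 12, and SEMA3B and SLIT3 under 15 each. Of the 5 uncalled genes all but PLXNC1 passed under at least 1: SEMA7A under 9, PLXNA1 under 5, and EFNB2 and PLXNB2 under 2 each. Leaving out single libraries gave 12 genes higher in A549 each time and 24 to 30 higher in H23. Over all genes it gave 5372 to 6839 higher in A549 and 5665 to 6935 higher in H23. On log2(TPM + 0.1) values the median log2 fold of the set was -1.22, against -0.72. The fold of PLXNC1 was reversed with upper quartile factors (-0.12), on log2(TPM + 1) (-0.077) and log2(TPM + 0.1) values (-0.33), without A549 replicate 1 or H23 replicate 3 (leaving out single libraries gave -0.12 to 0.13), with the GC and length trend removed (-0.44, and -0.44 with the replicate block) and on rescaled TPM (-0.038). That of PLXNB2 was reversed on log2(TPM + 1) and log2(TPM + 0.1) values (both -0.31) and on rescaled TPM (-0.037). The cause was not tested. On log2(TPM + 1) values 3868 of all genes were higher in A549 and 8334 in H23, against 5801 and 6109, and on rescaled TPM 4730 and 7122. The set then gave 10 and 31 on log2(TPM + 1) and 12 and 29 on rescaled TPM. Replicate numbers share only a number: deviations of same-numbered libraries correlated at 0.025, -0.039 and 0.054. The replicate block left 12 and 26 guidance genes called, and 5 rather than 8 with changed transcript usage (NRP2, NTN4, PLXNB1, SEMA3F and SEMA4G). Over all genes the block gave 5798 and 5893 calls, and 16.6% with changed usage. The 7 untested genes did not reach the filter on low counts. With no filter on low counts SEMA3D, SEMA4A and SLIT2 passed as higher in H23 (adjusted p = 0.0214, 0.0176 and 0.00593), and DCC, ROBO4, SEMA5B and SEMA6D did not.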

Other observations

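Neighbouring guidance genes were compared by value, in the RefSeq order of protein-coding genes, and only such genes were counted between them. On chromosome 7, SEMA3C, SEMA3E, SEMA3A and SEMA3D lie in that order, with 3 other genes between SEMA3C and SEMA3E and none between the later ones. The 3 tested genes of that stretch passed toward A549 (log2 folds 1.93, 2.63 and 1.39), as did 37.6% of all genes tested. Their GC contents, in the same order, were 46.1, 42.5 and 42.5%, below the set's median of 59.0%. The folds of SEMA3E and SEMA3A were smaller with the GC and length trend removed, as given above. SEMA3D averaged 0.0841 CPM in A549 libraries and 0.779 CPM in H23 libraries. All 4 had their highest H23 value in replicate 1, which for SEMA3D was 1.61 CPM against 0.301 and 0.424 CPM. On chromosome 3, SEMA3B and SEMA3F are separated by 3 genes and went in opposite directions, with log2 folds of 0.99 and -0.45. SEMA3B was called under 15 of the 17 alternatives and SEMA3F under only 7. No test of neighbourhood was run.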
